A study of Mus musculus with 18 samples.

Results

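Ins1 and Ins2 are the mouse insulin genes, and they were taken by symbol, with no use of their values, as 2 of the 18118 gene symbols for which a signal was deposited. Signals came from 18 Illumina MouseRef-8 v2.0 beadchips, single-colour arrays of bead-bound probes, with 3 arrays in each of 6 groups. The groups were induced beta cells at 10 days, 30 days, 60 days and 7 months, endogenous beta cells, and acinar cells, the pancreatic cells that secrete digestive enzymes. All groups came from the pancreas of Rag1-/- mice, which make no mature T or B cells. Per the labels, an adenovirus given to the splenic lobe of the pancreas was used for induction, and induced cells were sorted for a Cherry fluorescent protein after islets had been taken out and the remaining acinar fraction digested. The labels do not name the genes the virus carried, give no age of the mice, and carry 1 protocol text for every sample, and they do not say how endogenous beta and acinar cells were isolated. The labels do not say whether the 3 arrays of a group stand for different mice, so each p-value reflects array-to-array spread that may be technical, and having only 3 arrays a group limits precision throughout.

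Insulin is made as preproinsulin, which enters the endoplasmic reticulum, folds with the help of disulfide-forming enzymes, and is cut by prohormone convertases inside zinc-rich secretory granules. The mouse has a pair of non-allelic insulin genes. Ins2 has the gene structure shared with other mammals, and Ins1 is a retroposed copy found in mice and rats that lacks an intron of Ins2. Their transcription in beta cells depends on Pdx1, Neurod1 and Mafa among other factors, and insulin is the defining product of the beta cell, while acinar cells make none.

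In the RefSeq annotation of GRCm38.p6, Ins1 spans chromosome 19 from 52264297 to 52265015 with 1 annotated transcript, and Ins2 spans chromosome 7 from 142678656 to 142679726 with 3. The 250 bases before the start of Ins1, chr19:52264047-52264296 on the plus strand, are shown because the transcription factors described further on are known to bind insulin promoters. Capitals mark the E box of insulin promoters, GCCATCTG, to which Neurod1 dimers bind, and the homeodomain core TAAT or its reverse complement, to which factors such as Pdx1 bind.
Ins1 promoter: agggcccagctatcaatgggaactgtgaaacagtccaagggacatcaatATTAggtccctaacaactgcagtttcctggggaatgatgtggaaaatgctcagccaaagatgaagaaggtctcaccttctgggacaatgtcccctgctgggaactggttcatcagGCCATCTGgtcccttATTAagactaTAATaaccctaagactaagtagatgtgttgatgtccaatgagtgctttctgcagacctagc
Counted back from the first base of the gene, the E box begins at -86, and the 3 homeodomain cores begin at -201, -71 and -61. On either strand, GCCATCTG occurs in 1.11% of 32851 RefSeq promoter windows of this length and TAAT in 54.9%. The cAMP response element TGACGTCA, which occurs in 1.55% of the windows, has no match in the Ins1 window. A match describes letters and not binding. The matching window of Ins2 was not analysed here.

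Several features of the table bear on the insulin values. Between 5990 and 7745 genes on an array had a detection p-value under 0.01, where the detection p-value compares a gene's signal with negative control beads. The detection p-values of Ins1 and Ins2 on the 3 acinar arrays, 0.00311 to 0.00622, were whole multiples of 1 over 643, to within 0.002 of a step. None of them was a multiple of 1 over 798, and no other gene met both conditions on all 3 arrays. By the same tolerance, 13707 genes had multiples of 1 over 798 on every array. On the same acinar arrays, genes within 1 signal unit of Ins1 had median detection p-values of 0.861, 0.887 and 1.0, and those within 1 unit of Ins2 had 0.0401, 0.0614 and 0.860. For Ins1 these rest on 571, 461 and 1 genes, so the third value is that of 1 gene. Ins1 and Ins2 were therefore treated as not above background in acinar cells. In the 7-month columns, 80 values of 27 genes, Ins1 and Ins2 among them, were written with up to 10 digits, against at most 7 digits everywhere else. The 7-month arrays also resembled day 60 arrays number by number. Over tested genes the correlation across genes was 0.997 to 0.998 between day 60 and 7-month arrays of the same number and 0.978 to 0.986 between arrays of different numbers, while replicates within day 60 gave 0.978 to 0.986 and within 7 months 0.979 to 0.986. A fit without the 7-month arrays, added after the values had been seen, changed no insulin call among the other groups. Whether the 7-month arrays are samples independent of day 60 was not tested beyond these values.

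Ins2 was among the brightest genes of every induced and beta array, and Ins1 was far dimmer at day 10 than at later times. The Ins1 signals were 5935, 6299 and 6457 at day 10, 21136, 21393 and 20008 at day 30, 20178, 19205 and 16261 at day 60, and 22931, 21033 and 17114 at 7 months. Endogenous beta cells had Ins1 signals of 21782, 21705 and 21169, and acinar cells 44.9, 43.0 and 38.5. The day 10 arrays did not overlap any later induced array or any beta array, and the day 30 and 7-month arrays overlapped the beta arrays. Mean Ins1 signals were 6230 ± 268 at day 10, 20846 ± 737 at day 30, 18548 ± 2040 at day 60, 20359 ± 2966 at 7 months, 21552 ± 334 in beta cells and 42.1 ± 3.29 in acinar cells (SD, n = 3 each). The day 10 mean was 28.9% of the beta mean, and the later induced means were 86.1% to 96.7% of it.

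The Ins2 signals were 23888, 23709 and 23045 at day 10, 28310, 27554 and 27130 at day 30, 28814, 28925 and 23318 at day 60, and 28324, 29880 and 23384 at 7 months. Endogenous beta cells had Ins2 signals of 27222, 27106 and 25131, and acinar cells 63.6, 60.1 and 47.0. All 3 day 10 arrays lay below every day 30 and beta array, and the third array was the lowest at both day 60 and 7 months. Mean Ins2 signals were 23547 ± 444 at day 10, 27665 ± 598 at day 30, 27019 ± 3206 at day 60, 27196 ± 3392 at 7 months, 26486 ± 1175 in beta cells and 56.9 ± 8.75 in acinar cells (SD, n = 3 each). Relative to the beta mean, the day 10 mean of Ins2 was 88.9%, and the later induced means were 102% to 104%. The arrays were made from pooled RNA of many cells, so fewer insulin-making cells and less insulin RNA per cell cannot be told apart.

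**Figure D1:**
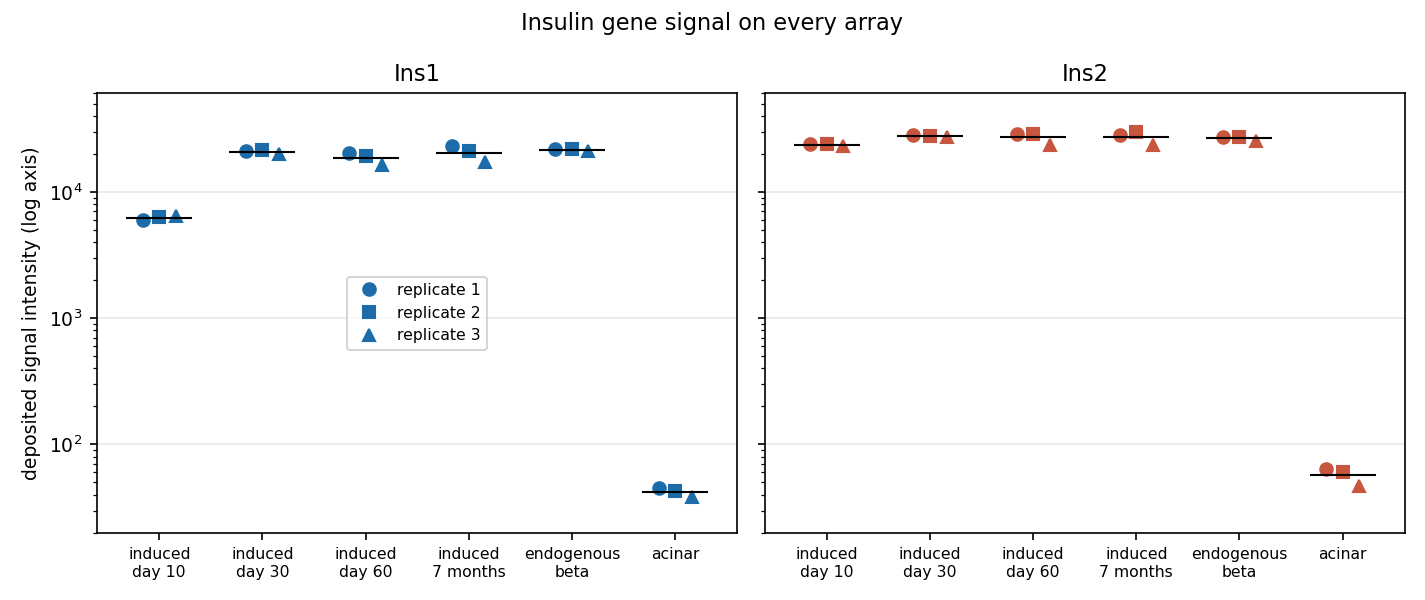
Deposited signal intensity (log axis) of Ins1 (left) and Ins2 (right) on each of the 18 arrays, by group; symbols mark replicate numbers and lines mark group means. Ins1 is lower at day 10 (mean 6230) than at later induced times and in beta cells (21552), Ins2 stays between 23045 and 29880 outside acinar cells, and both genes lie under 64 in acinar cells.

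Ordered by mean signal, Ins1 ran from beta cells through day 30, 7 months and day 60 to day 10 and acinar cells. Of these neighbours, day 30 and 7 months overlapped, as did 7 months and day 60, and beta cells and day 30. For Ins2 the order was day 30, 7 months, day 60, beta cells, day 10 and acinar cells. The first 4 of these groups overlapped each other, and day 10 overlapped day 60 and 7 months only through the third array of each. The acinar arrays stood apart from all others for both genes.

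The brightest signal on an array was between 25131 and 36736, the upper value being 56.1% of the 65535 that a 16-bit scanner can store. No 2 of the 100 brightest genes of an array shared a value, and 1 to 15 genes of an array reached 90% of its brightest signal. Signals written with many digits need not tie at a ceiling, so these checks cannot decide whether the brightest signals were compressed. Compression was not tested. At day 10 Ins2 ranked 34 to 39 and Ins1 217 to 247, at 76.8% to 78.0% and 19.1% to 21.7% of the brightest signal. At day 30 Ins2 ranked 4 to 5 and Ins1 43 to 45. At day 60 Ins2 ranked 1 to 12 and Ins1 26 to 47, and at 7 months Ins2 ranked 1 to 13 and Ins1 13 to 41. In beta cells Ins2 was the brightest gene on 3 of 3 arrays, and Ins1 ranked 5 on all 3, at 80.0% to 84.2% of the brightest signal. The genes above them on induced arrays were led by Reg1, a secreted regenerating protein of acinar cells, on 2 day 10 arrays and 1 day 30 array, by the trypsin gene Try10 on 1 day 10 array, and by the elastase gene Ela2 on 2 arrays at each of day 30, day 60 and 7 months. On acinar arrays Ins1 ranked 17430 to 18118 of 18118, the dimmest gene of all on the third array, and Ins2 ranked 7723 to 17432.

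**Figure D2:**
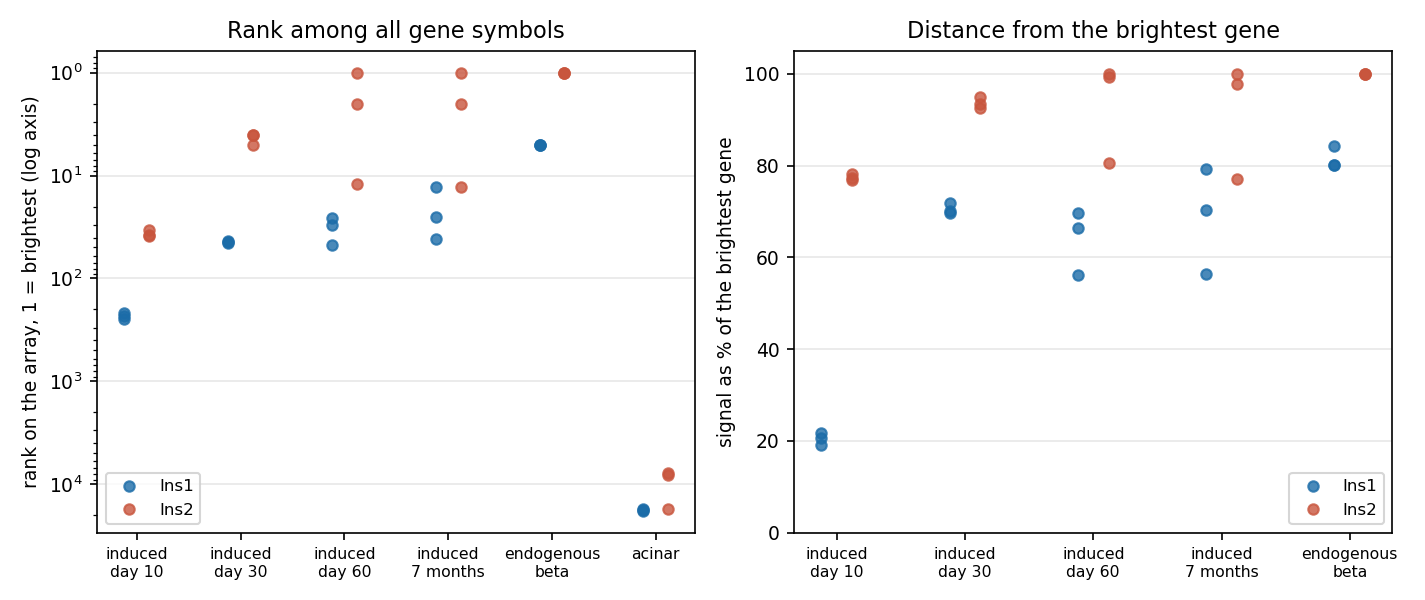
Left, rank of Ins1 and Ins2 among 18118 gene symbols on each array (log axis, 1 is the brightest). Right, their signal as a percentage of the brightest gene of the same array, without acinar arrays. Ins2 ranks 1 on all beta arrays, where Ins1 ranks 5, while on day 10 arrays Ins1 ranks 217 to 247.

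Tests used background-corrected, quantile-normalized log2 values of the 8942 genes detected on at least 3 arrays, fitted with limma over all 18 arrays, with Benjamini-Hochberg adjusted p-values. Quantile normalization gives each rank the same value on every array. Because Ins2 and Ins1 ranked 1 and 5 on every beta array, their normalized beta values were 14.87 and 14.70 with an SD of 0, and a normalized difference from beta cells is a difference in rank. Normalized Ins1 averaged 12.28 ± 0.08 at day 10, against 14.70 in beta cells, a log2 difference of -2.41 (SE 0.09, adjusted p = 1.3e-12, lower on 3 of 3 arrays). In deposited signals the difference was -1.79, or 3.46-fold higher in beta cells, and over all tested genes 80% were called between day 10 and beta cells. Ins1 was called lower at day 10 under each of the other scalings, fits and filters tried, with values between -1.61 and -2.44.

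Scaling moved the genes as a whole, which bears on every small difference. Of the genes called between day 10 and beta cells 47.5% were higher after quantile normalization, 36.6% after scaling to the array median and 34.9% without scaling, and the median over all tested genes was -0.02, -0.32 and -0.29. At day 60 the same shares were 44.5%, 33.2% and 36.0% (medians -0.10, -0.34 and -0.22), and at 7 months 44.6%, 30.1% and 31.1% (medians -0.10, -0.42 and -0.32). At day 30 they were 46.4%, 41.5% and 48.7% (medians -0.05, -0.14 and -0.01). Between day 30 and day 10 the share called higher was 50.9%, 68.3% and 84.2%, with medians of 0.01, 0.18 and 0.26. Relative to these medians, the Ins1 difference of day 10 from beta cells was still the largest of the insulin differences from beta cells under all 3.

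After day 10, Ins1 came close to the beta level and its remaining difference depended on the scaling. In normalized values Ins1 averaged 14.16 ± 0.02 at day 30, 14.30 ± 0.16 at day 60 and 14.41 ± 0.19 at 7 months, against 14.70 in beta cells. The log2 differences were -0.54 (adjusted p = 6.8e-05), -0.40 (adjusted p = 0.0010) and -0.29 (adjusted p = 0.0091), with 74.4%, 77.7% and 77.8% of all genes called. In deposited signals they were -0.05, -0.22 and -0.09, and only the day 60 arrays did not overlap the beta arrays. Scaled to the array median, the differences were -0.09, -0.23 and -0.05 and none passed the test, and cyclic loess turned the day 60 and 7-month differences to 0.02 and 0.26. No difference of Ins1 from beta cells after day 10 was therefore called under all scalings. Leaving out the third 7-month array ended the 7-month call, at -0.19 (adjusted p = 0.055).

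At day 10 Ins2 also had a lower normalized value than beta cells, and its differences from beta cells depended on the scaling at every time. Its normalized mean was 14.28 ± 0.04 at day 10, against 14.87 in beta cells, a log2 difference of -0.60 (SE 0.20, adjusted p = 0.013), which was -0.17 in deposited signals (adjusted p = 0.17) and turned to 0.02 when arrays were scaled to their medians (adjusted p = 0.90). Over the alternatives other than leaving out 1 array, this day 10 difference ran from -0.61 to 0.02. At day 30, day 60 and 7 months the normalized differences were -0.16, -0.12 and -0.12, with adjusted p-values of 0.49, 0.61 and 0.60. Ins2 held rank 1 on every beta array, so after quantile normalization its beta value was the highest possible and these differences could only be 0 or negative. In deposited signals the 3 differences were 0.06, 0.02 and 0.03, of the opposite sign, and with cyclic loess they were -0.44 (adjusted p = 0.046), 0.23 (adjusted p = 0.27) and 0.35 (adjusted p = 0.10). The data therefore set no common limit on these differences and do not show equality. The SE of Ins2 in this fit rests in part on acinar arrays, where it was at background with a normalized SD of 0.62.

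**Figure D3:**
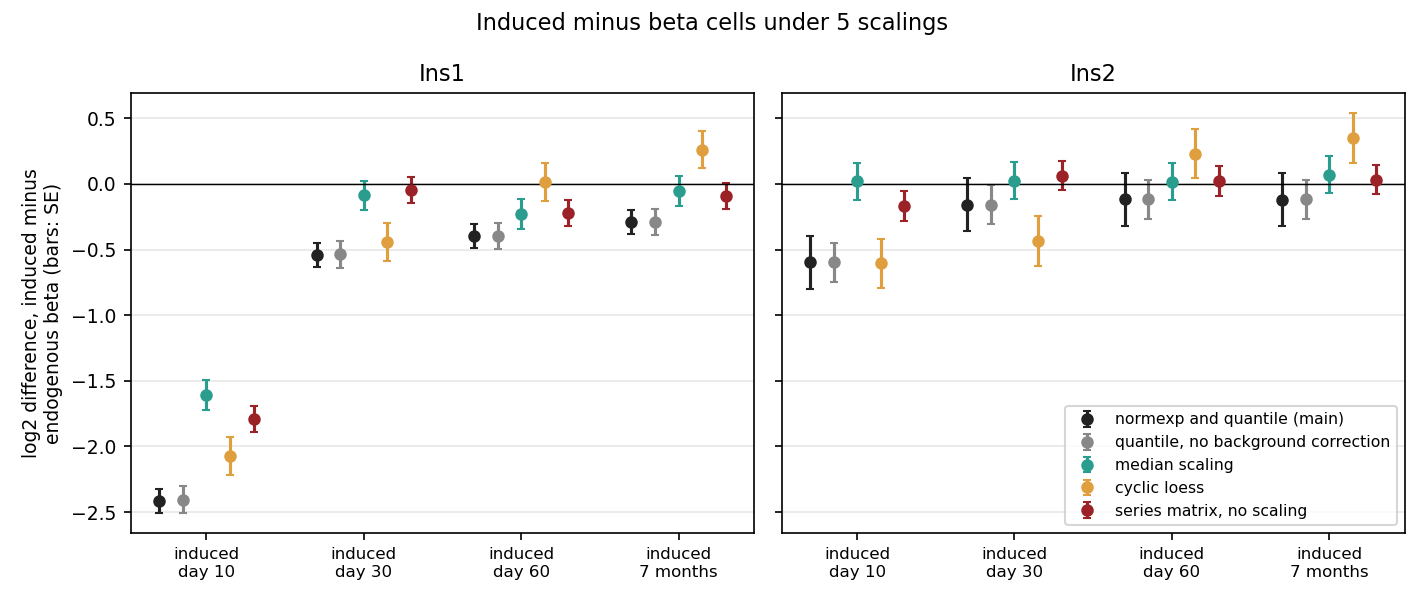
Log2 difference, induced minus endogenous beta cells, of Ins1 (left) and Ins2 (right) at each induced time under 5 ways of scaling the arrays; points are fitted differences and bars their SE, from 3 arrays a group. Ins1 at day 10 is between -1.61 and -2.41 under all 5, while most other differences lie near 0 and several change sign with the scaling.

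Among induced cells the change of Ins1 lay between day 10 and day 30. Normalized Ins1 averaged 14.16 ± 0.02 at day 30 and 12.28 ± 0.08 at day 10, a log2 difference of 1.88 (SE 0.09, adjusted p = 1.1e-09). In deposited signals the difference was 1.74, and 61.1% of all genes were called between these times. Between day 60 and day 30 the difference was 0.14 (adjusted p = 0.19, with 61.8% of all genes called), against -0.17 in deposited signals, with overlapping arrays. The day 60 array with the lowest Ins1 bore on this: without the third day 60 array the difference was 0.23 (adjusted p = 0.034). Between 7 months and day 60 it was 0.10 (adjusted p = 1.00), and between 7 months and day 10 it was 2.12 (adjusted p = 2.1e-11, with 75% of all genes called). An F-test over the 4 induced times called Ins1 (F = 243, adjusted p = 2.6e-11), as it did 83.9% of all genes, and without the 7-month arrays F was 460 (adjusted p = 7.7e-11).

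Ins2 averaged 14.72 ± 0.02 at day 30 and 14.28 ± 0.04 at day 10, a log2 difference of 0.44 (SE 0.20, adjusted p = 0.074). The 6 arrays did not overlap in deposited signals, which differed by 0.23 (adjusted p = 0.081). With median scaling the difference was 0.0038 (adjusted p = 0.98), and with cyclic loess it was 0.17 (adjusted p = 0.45). In a fit without the acinar arrays, added after the values had been seen, the difference was 0.44 (adjusted p = 0.00076). With the replicate number as a block it was 0.44 (adjusted p = 0.047). That number did not pair these groups, as deviations of same-numbered arrays from their group means correlated at only -0.015 to 0.006. The F-test over induced times did not call Ins2 (F = 2.66, adjusted p = 0.098, and F = 3.07, adjusted p = 0.090 without the 7-month arrays), but called it without the acinar arrays (F = 14.5, adjusted p = 0.00037). With median scaling F was 0.065 (adjusted p = 0.98), and without scaling it was 1.78 (adjusted p = 0.20). Between 7 months and day 10 the difference was 0.48 (adjusted p = 0.043), and it lost its call when either of 2 7-month arrays, any day 10 array or any beta array was left out, with values between 0.41 and 0.51. Between day 60 and day 30 the difference was 0.04 (adjusted p = 0.87), and between 7 months and day 60 it was -0.002 (adjusted p = 1.00).

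Between 7 months and day 60, 0% of the 8942 genes were called by limma. At an unadjusted p under 0.05 there were 208 genes, or 2.33%, and 552 genes, or 6.17%, in a fit of those groups with the replicate number as a block, which also called 0 genes after adjustment. The ratio of the 7-month signal to the day 60 signal of the same number was 1.14, 1.10 and 1.05 for Ins1 and 0.983, 1.03 and 1.00 for Ins2. The median ratio over all tested genes was 0.876, 0.945 and 0.957. Of all tested genes, 99.5%, 93.4% and 89.6% had a lower ratio than Ins1, and 90.8%, 84.1% and 74.6% had a lower ratio than Ins2. The other 25 genes with long digits had median ratios of 0.851, 0.922 and 0.946. What sets the insulin ratios apart from both was not tested.

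The difference between the deposited log2 signals of both genes within an array is the same under any scaling that multiplies an array by 1 factor. It is read here only as a change between groups, since the signal of one probe does not measure a level against another probe. Log2 Ins2 minus log2 Ins1 was 2.01, 1.91 and 1.84 at day 10, 0.42, 0.37 and 0.44 at day 30, 0.51, 0.59 and 0.52 at day 60, 0.30, 0.51 and 0.45 at 7 months, and 0.32, 0.32 and 0.25 in beta cells. As ratios of signals these were 3.57 to 4.02 at day 10, 1.29 to 1.36 at day 30, 1.43 to 1.51 at day 60, 1.24 to 1.42 at 7 months and 1.19 to 1.25 in beta cells. Every day 10 array was higher than every other array, so the shortfall of day 10 signals was larger for Ins1 than for Ins2. Ins2 was at 76.8% to 78.0% of the brightest signal at day 10 and at 100% in beta cells. Whether compression of bright signals made the Ins2 difference smaller was not tested. An exact permutation test of the F statistic over the 4 induced groups gave p = 0.0024 (n = 3 each). Without the 7-month arrays, an alternative added after the values had been seen, the exact p was 0.0036, the smallest that 280 partitions allow. With beta cells added to the 4 induced groups the exact p was 0.00018.

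Pairs of groups of 3 can reach no exact p below 0.10 (two-sided). Day 10 against beta cells differed by 1.62 in this measure, day 30 against beta cells by 0.11, day 60 against beta cells by 0.25 and 7 months against beta cells by 0.12. The first 3 pairs did not overlap and reached that smallest p, and the last overlapped (exact p = 0.30). Over the 8 pairs compared, the adjusted exact p-values were 0.11 for the 7 pairs without overlap and 0.30 for this one.

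**Figure D4:**
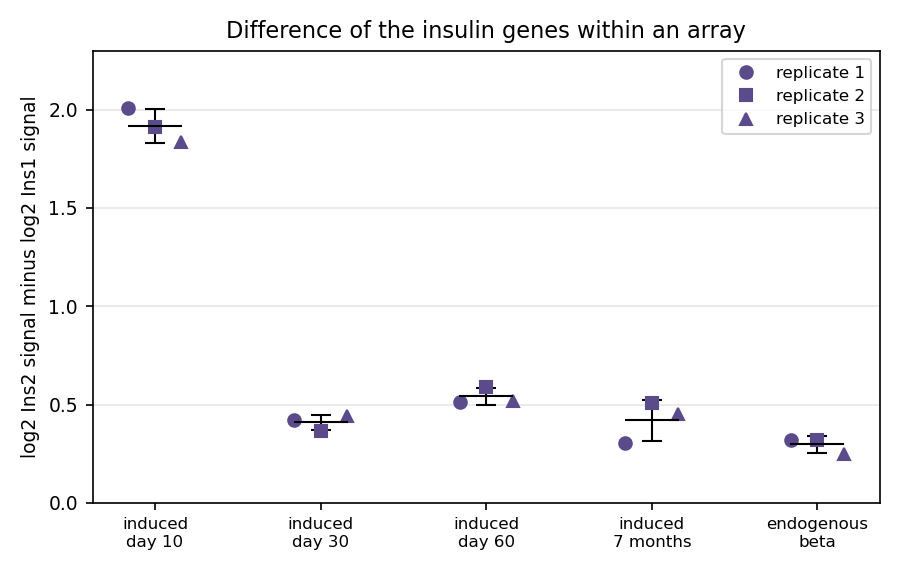
Log2 Ins2 signal minus log2 Ins1 signal within each array, by group; symbols mark replicate numbers, lines the group means and bars the SD (n = 3 each). Day 10 arrays lie between 1.84 and 2.01, all above the other induced and beta arrays, which lie between 0.25 and 0.59.

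Against acinar cells both insulin genes were high in every other group, and only lower bounds on the fold can be given. A bound sets the brighter group's mean against, on each acinar array, the lowest signal detected there (5.90 to 6.17 on the normalized log2 scale). The bounds hold for this normalization only. Under other settings the fitted log2 difference at day 10 fell to 5.42 for Ins1, against a bound of 6.21 here. For Ins2 it fell to 7.36, against 8.20. Ins1 was at least 73.8-fold higher at day 10, 271-fold at day 30, 299-fold at day 60 and 322-fold at 7 months than in acinar cells, and at least 393-fold higher in beta than in acinar cells. Ins2 was at least 294-fold, 398-fold, 410-fold and 410-fold higher at these induced times and at least 445-fold higher in beta than in acinar cells. The normalized means were 12.28, 14.16, 14.30, 14.41 and 14.70 for Ins1 against 4.31 ± 0.06 in acinar cells, and 14.28, 14.72, 14.76, 14.76 and 14.87 for Ins2 against 5.06 ± 0.62. The largest of the 10 adjusted p-values was 3.8e-15. Of all tested genes, 79.8%, 79.3%, 77% and 77.6% were called between the 4 induced times and acinar cells, and 79.4% between beta and acinar cells. The share of called genes that were higher in beta than in acinar cells was 53.0% after quantile normalization, 80.3% after median scaling and 88.4% without scaling.

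The low acinar insulin values stood beside other islet hormone signals on the same arrays. Gcg, the glucagon gene of alpha cells, had 18383 to 18860 signal units on beta arrays, against 1869 to 2382 on acinar arrays, and was detected on 3 of 3 acinar arrays. Its acinar mean was 11.3% of its beta mean. The same share was 3.08% for the somatostatin gene Sst, 2.67% for the pancreatic polypeptide gene Ppy, 2.23% for Pyy and 2.15% for the amylin gene Iapp, which beta cells release together with insulin. All of these were detected on 3 of 3 acinar arrays. For Ins1 and Ins2 the share was 0.195% and 0.215%, with both at the level of undetected genes. At day 10 the Gcg signal was 839 ± 33.4 and the Sst signal 1939 ± 64.1, against 18547 ± 271 and 14685 ± 592 in beta cells (SD, n = 3 each). Of 2 tested alpha cell markers, 1 was called higher and 1 lower at day 10 than in beta cells. Of 2 delta cell markers, 0 were called higher and 1 lower, against 38% and 42% of all genes. The 4 alpha markers summed to 13313 to 13592 at day 10 and 25255 to 25932 in beta cells, where 2 of 4 were detected on each array. The endogenous beta arrays thus held bright signals of hormones that mark alpha, delta and PP cells, beside insulin.

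Summed marker signals of other cells, not scaled between arrays, varied over the induced groups. Of 16 acinar marker genes, 14 were in the table, and their summed background-corrected signal was 254938 to 266698 at day 10, 237722 to 250164 at day 30, 199646 to 205027 at day 60 and 197160 to 204955 at 7 months. It was 7112 to 8266 in beta cells and 285640 to 294482 in acinar cells. Of 8 beta cell markers other than insulin, 7 were detected on each day 10 array and 8 on each later induced and beta array. Their summed signal was 1887 to 1961 at day 10, 8029 to 8709 at day 30, 12016 to 13471 at day 60, 10320 to 11702 at 7 months, 19264 to 20691 in beta cells and 183 to 252 in acinar cells. Red blood cell markers summed to 99.3 to 121 at day 10 and 251 to 296 at day 30. Their sums were 934 to 7777 at day 60 and 888 to 6770 at 7 months, highest on the first array of each. In beta cells they summed to 19.6 to 25.9, and in acinar cells, the highest group, to 10967 to 13565. The 4 mesenchymal markers summed to 52.0 to 60.1 at day 10, 1099 to 1269 at day 30, 2643 to 5937 at day 60 and 2184 to 5394 at 7 months, against 23.5 to 28.8 in beta cells. The 4 macrophage markers summed to 1229 to 1372 at day 10, 649 to 699 at day 30, 580 to 1967 at day 60 and 467 to 1762 at 7 months, against 164 to 203 in beta cells. The 4 duct markers summed to 3552 to 3996 at day 10, 8238 to 8494 at day 30, 2676 to 6446 at day 60 and 2211 to 5474 at 7 months, against 11838 to 12674 in beta cells. In acinar cells the mesenchymal markers summed to 1192 to 1566, the macrophage markers to 174 to 238 and the duct markers to 1386 to 2025. The summed signals of these lists differed between day 10 and day 30 without overlap, as did those of every other marker list summed. A sum can rest on 1 bright gene. Of 3 tested mesenchymal markers, 2 were called higher at day 30 than at day 10 and 0 lower. All 4 macrophage markers were called lower, and of 4 duct markers 1 was called higher and 2 lower. Of 13 tested acinar markers, 0 were called higher, 3 lower and 10 not called (median 0.01). Over all tested genes, 31.1% were called higher and 30% lower. Between day 60 and day 30, 1 acinar marker was called higher, 2 lower and 10 not called (median -0.02). The shares over all genes there were 30.2% higher and 31.6% lower. The part of these signals in the insulin differences was not tested.

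Of 24 transcription factors known to act on insulin genes or in islet cells, 23 were in the table and 17 passed the filter on dim genes. Against beta cells 6 were higher and 11 lower at day 10 (median -0.80), 7 and 8 at day 30 (median 0.26), 11 and 4 at day 60 (median 0.67), and 11 and 4 at 7 months (median 0.70). The medians of all tested genes were -0.02, -0.05, -0.10 and -0.10, with 38%, 34.5%, 34.6% and 34.7% called higher and 42%, 39.9%, 43.1% and 43.1% called lower. Between day 30 and day 10, 10 of the 17 were higher and 3 lower (median 0.43), against a median of 0.01 and shares of 31.1% and 30% over all genes. Between day 60 and day 30, 10 were higher and 3 lower, with shares of 30.2% and 31.6% over all genes, and between 7 months and day 10, 11 were higher and 3 lower, with shares of 35.4% and 39.6%. Under median scaling the counts of higher and lower factors against beta cells were 6 and 11, 6 and 8, 10 and 5, and 9 and 6 at the 4 times. That scaling called 81.3%, 76.1%, 80.3% and 81.6% of all genes at these times. Of the genes called, 36.6%, 41.5%, 33.2% and 30.1% were higher.

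Single factors differed in direction. Pdx1, a homeodomain activator of insulin genes listed under the older symbol Ipf1, averaged 166 ± 12.4 at day 10, 193 ± 7.11 at day 30, 280 ± 6.48 at day 60 and 252 ± 39.2 at 7 months, against 1323 ± 18.3 in beta cells and 131 ± 19.7 in acinar cells (SD, n = 3 each). It was called lower than beta cells at all 4 times, with log2 differences of -2.21 to -2.98. In deposited signals, which include background, Pdx1 stood at 14.6% of its beta mean at day 30, while Ins1 stood at 96.7%. Inferred negative controls averaged 60.0 to 63.5 on day 30 arrays, a larger part of the Pdx1 signal than of the Ins1 signal. Mafa, which binds the C1 element of insulin promoters, averaged 352, 477, 351 and 319 at the 4 times and was called higher than beta cells at each. Its beta mean of 81.4 lay under the lowest signals detected on the beta arrays (87.0 to 90.7). The log2 differences of 2.77 to 3.19 are therefore fitted values and give no measured fold. Isl1, a LIM homeodomain factor of islet cells, averaged 64.7 and 77.0 at day 10 and day 30, where it was not above background, and 194 and 174 at day 60 and 7 months, against 4538 in beta cells. Neurod1, the E box factor, averaged 111 ± 4.69 at day 10, 320 ± 13.5 at day 30, 524 ± 24.0 at day 60 and 518 ± 44.5 at 7 months, against 275 ± 18.6 in beta cells. It was called lower than beta cells at day 10 (-1.12, adjusted p = 1.7e-08) and higher at day 30 (0.41, adjusted p = 0.0010), although the day 30 call was lost under median scaling (0.17). Rfx6, a winged-helix factor of islet development listed as Rfxdc1, averaged 236 at day 10, 1510 at day 30, 4144 at day 60 and 3674 at 7 months, against 1251 in beta cells. Pax4, an islet repressor known from beta cell development, averaged 120, 452, 388 and 359 at the 4 times and was not above background in beta cells (47.9). The 7-month values of 6 factors on the list, Neurod1 and Rfx6 among them, carry the long digits described above.

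Of 21 genes that cut proinsulin or build its granules, 18 passed the filter, and their direction was more uniform. Against beta cells 17 were lower and 1 higher at day 10 (median -2.19), 15 lower and 1 higher at day 30 (median -0.99), 12 lower and 0 higher at day 60 (median -0.98) and 14 lower and 0 higher at 7 months (median -0.99). Between day 30 and day 10, 14 were higher and 0 lower (median 1.03). Over all tested genes, 42%, 39.9%, 43.1% and 43.1% were lower and 38%, 34.5%, 34.6% and 34.7% higher than in beta cells at the 4 times (medians -0.02, -0.05, -0.10 and -0.10), and 31.1% were higher and 30% lower at day 30 than at day 10 (median 0.01). Under median scaling, cyclic loess or no scaling, 12 to 16 were lower and 0 to 3 higher than in beta cells at each time. Of all genes called under these settings, 30.1% to 52.1% were higher. Against acinar cells 14 were higher and 1 lower at day 10, 17 were higher and 1 lower at day 30, and 18 were higher in beta cells. The shares of all genes called higher and lower were 40.2% and 39.6% at day 10, 39.6% and 39.7% at day 30, and 42.1% and 37.3% in beta cells. Pcsk2, a convertase that cuts proinsulin, averaged 4300 ± 79.1 at day 10, 10439 ± 142 at day 30, 11076 ± 1038 at day 60 and 10480 ± 616 at 7 months, against 11605 ± 60.1 in beta cells. Slc30a8, the zinc transporter of the insulin granule, averaged 199 ± 6.08 at day 30, 495 ± 40.5 at day 60 and 444 ± 80.9 at 7 months, against 1366 ± 84.7 in beta cells, and it was not above background at day 10 (72.1). Scg2, a granin of dense-core granules, was at 60.5 and 75.1 at day 10 and day 30, not above background, and at 141 and 142 at day 60 and 7 months, against 15310 in beta cells. Chga, the granin chromogranin A, averaged 13287 ± 401 at day 10, against 12531 ± 512 in beta cells, with a normalized difference of -0.55 (adjusted p = 0.0011) that turned to 0.27 under median scaling and 0.08 without scaling. Vamp2, a vesicle fusion protein, was the 1 gene called higher at day 10 and at day 30 (0.43 and 0.73), and without scaling its day 10 call was lost (0.19). The 7-month values of 6 genes of the list carry the long digits.

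**Figure D5:**
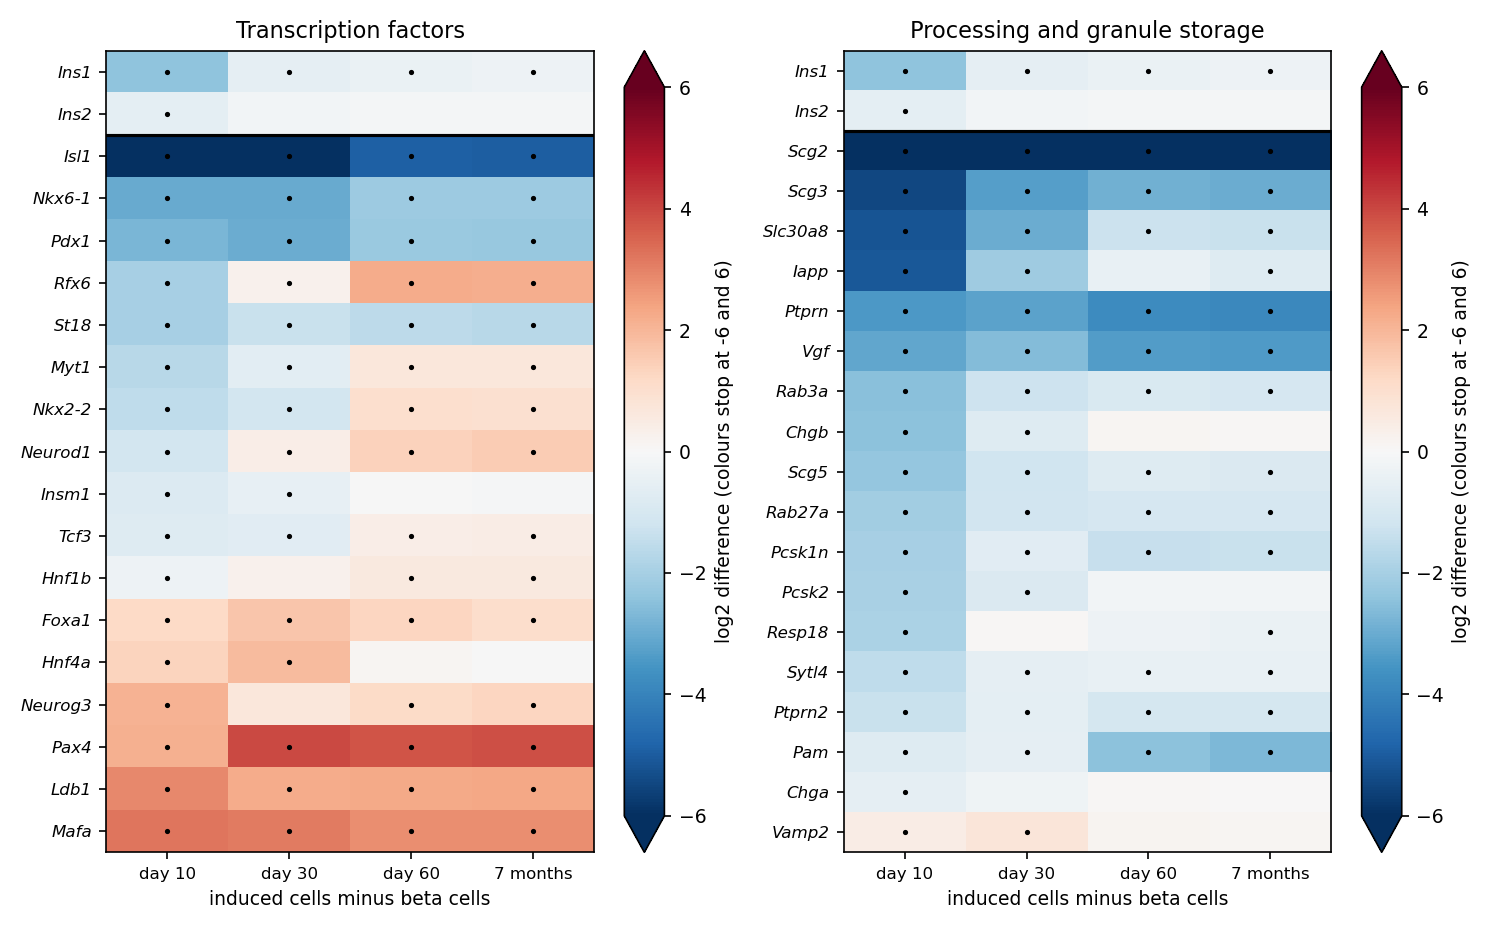
Log2 difference of normalized values, induced minus endogenous beta cells, at 4 times for Ins1, Ins2 and the tested members of the transcription factor list (left, 17 genes) and the processing and granule list (right, 18 genes); dots mark adjusted p under 0.05, rows are sorted by day 10, colours stop at 6 either way, and cells of genes not above background in a group show fitted values and no bound. At day 10, 11 factors are called lower and 6 higher, and 17 granule genes are called lower and 1 higher.

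Of 21 genes for translocation and folding of proinsulin in the endoplasmic reticulum, 15 passed the filter. Against beta cells 11 were lower and 1 higher at day 10 (median -0.68), 8 lower and 3 higher at day 30 (median -0.47), 11 lower and 2 higher at day 60, and 12 lower and 2 higher at 7 months (median -1.09). The shares of all genes were 42% lower and 38% higher at day 10, 39.9% and 34.5% at day 30, 43.1% and 34.6% at day 60, and 43.1% and 34.7% at 7 months, with the all-gene medians given for the granule genes. Pdia3, a disulfide isomerase listed as Grp58, averaged 1168 ± 31.3 at day 10 and 2520 ± 42.6 at day 30, against 11134 ± 204 in beta cells. Prdx4, an endoplasmic reticulum peroxidase, was the 1 gene called higher at day 10, with a signal of 8965 ± 109, against 1787 ± 104 in beta cells and 14776 ± 1065 in acinar cells. Between day 30 and day 10, 9 of the 15 were higher and 2 lower (median 0.27), against shares of 31.1% and 30% over all genes. Many of these genes serve all secretory cells, and against acinar cells 2 were higher and 13 lower at day 10 (median -0.69), when 40.2% of all genes were higher and 39.6% lower (median 0.01). Without scaling 8 were higher and 4 lower (median 0.26), when 85.5% of all called genes were higher (median 0.60).

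Of 14 genes of the insulin family, its receptors and their signalling, 8 passed the filter. Insr, the insulin receptor gene, was not above background in any group (means 53.4 to 68.6) and was not tested. Against beta cells 3 of the 8 were higher and 5 lower at day 10, and 3 were higher and 2 lower at day 60. Over all genes 38% were higher and 42% lower at day 10 and 34.6% and 43.1% at day 60, so the share of higher members was near that of all genes. Irs2, an insulin receptor substrate, averaged 628 at day 10, 1027 at day 30, 1804 at day 60 and 1644 at 7 months, against 2087 in beta cells. Igf1, insulin-like growth factor, averaged 590, 448, 653 and 605 at these times, against 63.1 in beta cells, where it was not above background, and 987 in acinar cells. Of 3 genes whose products bind insulin mRNA, 2 passed the filter. Ptbp1, which is known to stabilise insulin mRNA, differed from beta cells by 0.47 at day 10 and 0.28 at day 30 (adjusted p = 1.5e-05 and 0.0018), and by 0.04 at day 10 without scaling, where the call was lost. All 10 genes on the list of other islet and gut peptide hormones passed the filter, and against beta cells 4 were higher and 6 lower at day 10, when 38% of all genes were higher and 42% lower. The ghrelin gene Ghrl averaged 17329 at day 10 and 21084 at day 30, against 70.2 in beta cells, where it was detected on 1 of 3 arrays.

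The genes whose normalized values followed each insulin gene most closely were named by Pearson correlation, a description with no test, since arrays of a group share their state. Over the 18 arrays, the 5 genes most like Ins1 were Pcsk2 (0.997), Emb (0.995), Resp18 (0.994), Chgb (0.994) and Scg5 (0.994), and Ins2 came at position 19 (0.985). The 5 most like Ins2 were Chga (0.999), Atp2a3 (0.998), Insm1 (0.996), Camk2b (0.994) and Vstm2l (0.994), and Ins1 came at position 14. These correlations are set largely by the distance of acinar arrays from the rest. Over the 12 induced arrays, the genes most like Ins1 included Ucn3 (0.995), Gadd45g (0.994), Gjd2 (0.992) and Ppm1d (0.992), and Ins2 fell to position 342 (0.944). Ucn3, a peptide hormone of mature beta cells, averaged 115 ± 7.13 at day 10, 1277 ± 67.8 at day 30, 1281 ± 103 at day 60 and 1142 ± 74.0 at 7 months, against 1492 ± 71.8 in beta cells. The 5 most like Ins2 over induced arrays were Msmo1 (0.986), BC066028 (0.978), Celf1 (0.975), Fkbp5 (0.974) and Bbs5 (0.974).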

How the data were processed

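RNA of 6 groups of 3 samples was measured on beadchips. Groups and replicate numbers came from the sample titles. For every gene symbol and array the authors deposited a signal intensity with its detection p-value, as the file headers name them. Their deposited series matrix holds log10 of the same signals, equal to within 5.5e-10 for 18112 symbols. Which software and background handling the authors used is not given in the sources used here. Deposited array medians differed, with no sign of scaling between arrays (medians 56.8 to 81.6).

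Signals were corrected with normexp (offset 16, negative controls inferred from detection p-values), quantile-normalized and fitted with lmFit and eBayes in limma 3.58.1 (R 4.3.3). The test took genes whose detection p-value fell below 0.01 on 3 or more arrays (8942 kept, 9176 left out), and genes were called at an adjusted p under 0.05. Tables were handled in Python 3.11.15 with pandas 2.3.3 and numpy 2.4.6. The fit was tested on simulated data. Exact permutation tests used deposited signals. Symbols were updated through a RefSeq table (17257 found, 5221 updated).

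The insulin genes are always named, the most alike genes are the 5 with the highest correlation (1 of them is not reported here), and list members are named where past the threshold with the largest size (at most 4 per list and comparison) or where their level touches an insulin result. Vamp2, Prdx4, Insr and Irs2 were named after their values had been seen. Members and lists were chosen with earlier results of these data known. Alternatives changed the control inference, background correction, offset, scaling, filter, replicate block, groups fitted and arrays left out. Same-numbered day 60 and 7-month arrays deviated together from their group means (correlations 0.860, 0.843 and 0.786), so these numbers pair the samples of those groups. All other pairs of groups gave -0.037 to 0.068.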

Additional observations from a re-analysis of the deposited data

Results flagged for a closer look

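The difference of induced from beta cells changed between time points in 3 cases called by limma. For Ins1 it differed between day 30 and day 10 by 1.88 and between 7 months and day 10 by 2.12 on the log2 scale. For Ins2 it differed between 7 months and day 10 by 0.48. The last of these lost its call under median scaling and without scaling between arrays. Groups of 3 arrays are too small for the check for single arrays that lie far from the others.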

How the results depend on the processing

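Over 13 comparisons per gene, the calls of Ins1 at day 10 against beta cells, at day 30 and at 7 months against day 10, and of both genes against acinar cells kept their direction and call under every alternative run. Scaling changed most others, and the cause was not tested. With median scaling the Ins1 differences from beta cells were -0.088, -0.23 and -0.053 at day 30, day 60 and 7 months, and without scaling (the series matrix) -0.049, -0.22 and -0.093, none called. With cyclic loess the day 60 and 7-month values were 0.015 and 0.26, of opposite sign. Ins1 between day 60 and day 30 was -0.14 with median scaling, -0.17 without scaling and 0.46, called, with loess.

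Ins2 against beta cells was 0.021, 0.024, 0.016 and 0.071 at the 4 times with median scaling. Without scaling it was -0.17 (not called), 0.064, 0.023 and 0.031. With loess it was -0.44 (called), 0.23 and 0.35 at day 30, day 60 and 7 months. The day 30 value of -0.16 was called with only the 2 groups in the fit. Ins2 between day 60 and day 30 was -0.0082 with median scaling, -0.041 without scaling and 0.67, called, with loess, and between 7 months and day 60 it was 0.055, 0.0087 and 0.12 under median scaling, no scaling and loess. Between 7 months and day 10 it lost its call with median scaling (0.050), without scaling (0.20) and with no filter on dim genes (0.48).

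Ins2 between day 30 and day 10 was called at 0.44 with limma's own inference of the controls, without background correction, with an offset of 50 and with only the 2 groups in the fit. It was not called with median scaling (0.0038, adjusted p = 0.98), cyclic loess (0.17) or no scaling (0.23). It was called with the replicate number as a block (0.44, adjusted p = 0.047), which changed no other call, although that number did not pair these groups. Fits without the acinar or the 7-month arrays, of only day 60 and 7 months with the block, and the exact test without 7-month arrays were chosen after seeing the data, and without the acinar arrays this difference was called (0.44). The F of Ins2 over induced times was 20.3, 4.87, 8.38, 12.7 and 14.5, all called, with limma's inference, no background correction, offset 50, loess and no acinar arrays, but 0.065 (adjusted p = 0.98) with median scaling and 1.78 without scaling. The within-array difference between the genes, on normalized values, was 1.82 for day 10 minus beta cells, 0.38 for day 30 minus beta cells, -0.10 for day 60 minus day 30 and -1.65 for 7 months minus day 10.

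Leaving out 1 array at a time gave -0.37 to -0.19 for Ins1 at 7 months against beta cells and 0.085 to 0.23 between day 60 and day 30. For Ins2 it gave 0.43 to 0.47 between day 30 and day 10, -0.018 to 0.13 between day 60 and day 30, -0.089 to 0.086 between 7 months and day 60, and 0.41 to 0.56 between 7 months and day 10. The F of Ins2 ran from 1.73 to 14.2, the highest without the third acinar array. That array, or the first acinar array, also decided the Ins2 call between day 30 and day 10 (0.44 without either).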
